A study of Mus musculus with 7 samples.

Results

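The genes described here make up the glutathione, peroxiredoxin and thioredoxin systems of the mouse, with superoxide dismutases, catalase and the quinone and heme enzymes Nqo1 and Hmox1. They were chosen by symbol alone, as every non-control probe whose gene name in the scanner files is a glutathione transferase (Gsta, Gstk, Gstm, Gsto, Gstp, Gstt or Mgst), Gpx, Prdx1 to Prdx6, Txn, Txnrd, Gclc, Gclm, Gss, Gsr, Srxn1, Sod1 to Sod3, Cat, Nqo1 or Hmox1. The rule found 81 probes of 52 genes among the 56605 probes of the array. The rule itself uses no measured value, though it was set with earlier results of these data known.

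RNA was measured in mammary glands of 3 wild-type mice and 4 PRA transgenics, 1 animal to an array, on 7 arrays of 2 colours. All animals were nulliparous FVB females of 20 to 25 weeks in diestrus, and each gave a single abdominal gland from which the lymph nodes had been cut away. The PRA transgenics carry 2 transgenes, GAL-4 under the murine CMV promoter and PR-A under GAL-4 binding sites, so that the A form of the progesterone receptor is made in excess from a promoter that is not specific to the mammary epithelium. The wild-type mice are described as littermates with no further allele given. Gland RNA was labelled with Cy5 in every array and a commercial reference RNA from 11 mouse cell lines with Cy3, without a dye swap. Every value below is a log2 ratio of gland over reference for 1 probe, or a difference of such ratios between the genotypes, and a positive difference means a higher ratio in PRA transgenics.

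Glutathione is made from its amino acids by glutamate-cysteine ligase, whose catalytic and modifier subunits are Gclc and Gclm, and by glutathione synthetase, Gss. Glutathione reductase, Gsr, returns the oxidized form to the reduced form with NADPH. Transferases join glutathione to reactive molecules, and peroxidases of the Gpx family spend it on hydrogen peroxide and lipid peroxides. Peroxiredoxins remove peroxides with electrons from thioredoxin, which the selenoenzymes of the Txnrd family reduce with NADPH. Many of these genes are known targets of the transcription factor Nrf2, encoded by Nfe2l2, which binds antioxidant response elements with a small Maf protein.

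The probes for Gpx2, Gpx8 and Cat are the ones on which the comparison turned, and both Gstm5 probes gave ratios that did not overlap between the genotypes. The middle of each probe, bases 16 to 45 of 60 as the files give them, is shown so that the transcript stretch that was measured can be found.
Gpx2: ggtaggttctgggccttcacagaatgatgg
Gpx8: tactatactactcagatgtaatggctgtcc
Cat: tttaacagaaacatggatctaataggactt
Gstm5, first probe: cttggatcagaaccgtatatttgagcccaa
Gstm5, second probe: tgtcagtcttgttccatcctgtcctgaggg
The files place these probes in mm9 at chr12:77893402-77893461 on the minus strand for Gpx2, chr13:113833213-113833272 on the minus strand for Gpx8, chr2:103294660-103294719 on the minus strand for Cat, and chr3:107701101-107701160 and chr3:107701511-107701570 on the plus strand for Gstm5. Exon boundaries of that build were not used here.

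Antioxidant response elements follow the core TGACNNNGC, and promoters of several members hold it. The windows below are from RefSeq (GRCm38.p6), each 30 bases long, printed on the strand of the gene, and lie upstream of an annotated start. The capitals mark the core as searched on both strands, so that it reads forward in Gsta3 and Gstm5 and backward in Gclm, Prdx1 and Txnrd1.
Gsta3: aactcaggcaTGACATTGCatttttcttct
Gstm5: caccgcccacTGACCACGCggagggcgggt
Gclm: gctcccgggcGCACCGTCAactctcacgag
Prdx1: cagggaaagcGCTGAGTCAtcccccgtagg
Txnrd1: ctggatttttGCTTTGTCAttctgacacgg
They lie at chr1:21240454-21240483, chr3:107895802-107895831, chr3:122245413-122245442, chr4:116685456-116685485 and chr10:82859104-82859133, all on the plus strand. In the Prdx1 window the capitals also hold the AP-1 motif TGAGTCA. The core was found in 9 of 58 windows of 300 bases from 45 member genes, which is 15.5%, beside 12.4% of all 32851 windows, and 7 member genes had no window. By brightest probe, the 9 genes with the core had a median log2 fold change of 0.15, between -0.31 and 0.25, and the 32 genes measured whose windows lacked it had a median of 0.01, between -0.99 and 0.75. A match is a run of letters only, and binding was not measured.

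All 10 luminal epithelial markers, all 6 basal markers and all 9 white adipocyte markers fixed for the analysis were above background, as the label of a whole gland implies. The share of probes well above background in Cy5 was between 62.6% and 66.1% in the wild-type arrays and between 56.6% and 60.2% in the PRA arrays, and no non-control spot was saturated. All arrays lay on 1 slide, wild-type arrays in its first row and PRA arrays in its second, so that row and genotype cannot be told apart. The Cy3 channel held the same reference RNA everywhere, and its own signal differed between the rows at an unadjusted P under 0.05 in limma for 7 of the members' 69 usable probes (10.1%) and for 10.4% of all usable probes. The mean log2 ratio of skeletal muscle markers was 2.14, -0.03 and 3.17 in wild-type mice 1 to 3 and 0.30, 0.17, 0.23 and 3.17 in PRA transgenics 1 to 4, so that these markers differed widely within each genotype. For T cell markers it was 2.05, -0.02 and 0.41 in wild-type mice and lay between -0.25 and 0.18 in PRA transgenics. In a whole gland, fewer cells of a type and less RNA in each cell cannot be told apart.

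Of the 81 member probes, 69 probes of 48 genes were usable, meaning that the gland signal stood well above background in every array of the wild-type group, the PRA group or both. Of these, 68 passed in both genotypes, and 1 Prdx4 probe passed through the 3 wild-type arrays with 1 of 4 PRA arrays. Another 12 probes were not usable. Gpx5 and Gpx6, peroxidases known from the epididymis and the olfactory epithelium, and Gstt4 were not well above background in any array or either dye. Gsta2 was well above background in the reference on all 7 arrays and in the gland on 1 array of each genotype. The other 8 dim probes belong to genes that have a usable probe as well: Gsta3, Gstm7, Gsto2, Hmox1, Mgst3, Prdx2, Txn2 and Txnrd2.

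In the comparison of the genotypes, 3 member probes passed P under 0.05 in limma with a change of 1.5-fold or more, the wider of the study's thresholds. Gpx8 was higher in PRA transgenics, and Gpx2 and Cat were lower. These 3 are 4.35% of the 69 members, beside 4.53% of all 34288 probes tested, so that the members' share lay near the background with these settings. The background depended on the processing while the same 3 members were called: their share was 4.35% beside 0.957% of all probes under normexp background correction with loess, and 4.55% of 66 members beside 1.90% where both channels had to be above background on all arrays. In the upward direction it was 1.45% of members beside 1.94% of all probes, and in the downward direction 2.9% beside 2.59%. No member reached a Benjamini-Hochberg adjusted p under 0.05 in limma, where 4 probes of the whole array did (0.0117%). The same 3 members and no others had an unadjusted P under 0.05 (4.35%, beside 9.02% of all probes). At the stricter threshold of P under 0.01 and 2-fold there was no member, beside 0.796% of all probes.

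**Figure D1:**
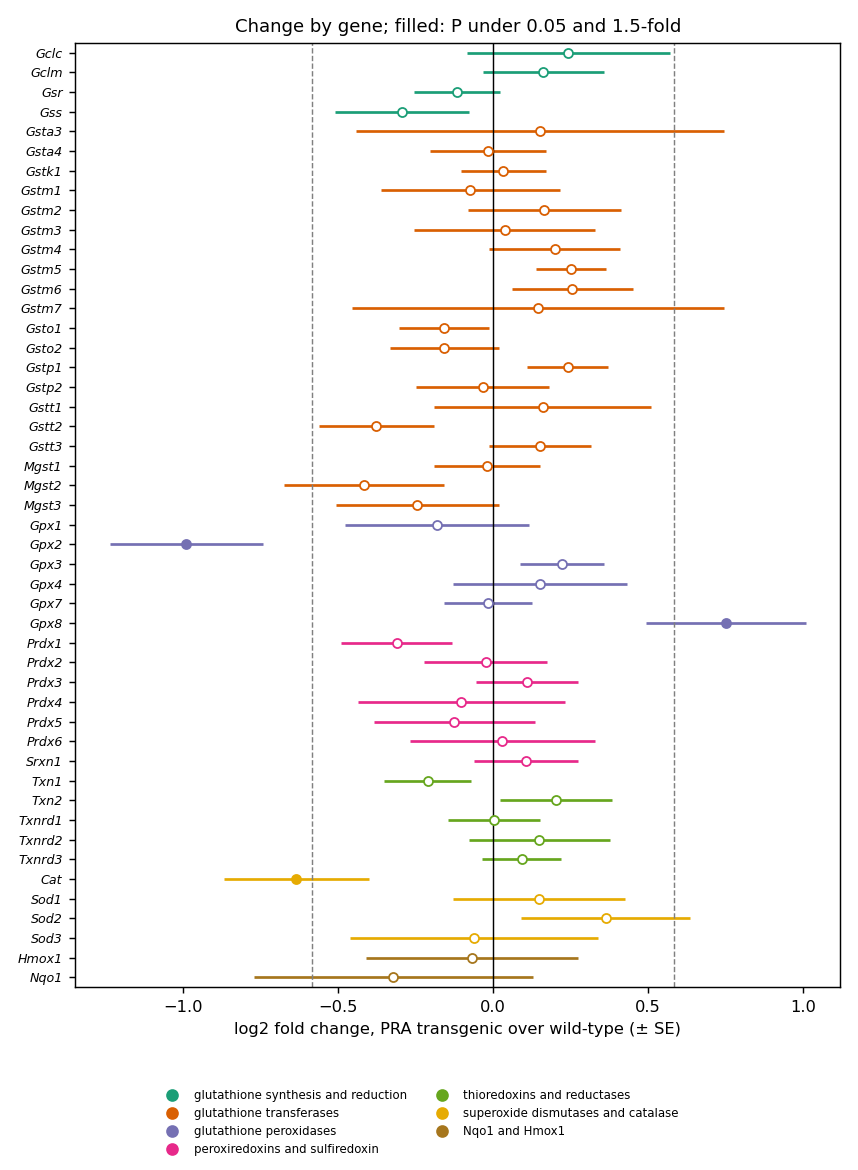
Log2 fold change of PRA transgenics over wild-type mice for 48 genes, each by its brightest usable probe, with the standard error as a bar (n = 3 wild-type, 4 PRA). Filled points passed P under 0.05 and 1.5-fold; dashed lines mark 1.5-fold. Most genes lie close to 0, with Gpx2 (-0.99), Cat (-0.63) and Gpx8 (0.75) outside the dashed lines.

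The median log2 fold change of the 69 probes was 0.04, beside 0.02 over all probes, and 38 of 69 (55.1%) were higher in PRA transgenics, beside 54.2% of all. For 55 of the 69 the difference was within 0.25 of 0. The 66 that were not called ranged from -0.51 to 0.36. The median spread within a genotype was an SD of 0.294, beside 0.267 over all probes, and single probes ran from 0.0860 to 0.931.

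Among the enzymes that make and recycle glutathione, none of 5 probes of 4 genes passed the test. The largest difference was that of Gss, which joins glycine to the dipeptide made by glutamate-cysteine ligase. Its log2 ratios were -0.64, -0.27 and -0.57 in wild-type mice and -0.38, -0.71, -1.25 and -0.82 in PRA transgenics. The genotypes overlapped through the first PRA animal, and the difference was -0.29 ± 0.22 (SE), with a limma adjusted p of 0.743; the second Gss probe gave -0.15 ± 0.22.

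Gclc, the rate-limiting catalytic subunit, was at 0.11, -1.04 and -1.07 in wild-type mice and 0.04, -0.63, -0.58 and -0.52 in PRA transgenics. The first animal of each genotype was the high one. The difference was 0.24 ± 0.33 and reached 0.63 without the first wild-type animal, where it passed the threshold. Its modifier subunit Gclm differed by 0.16 ± 0.19 and glutathione reductase, Gsr, by -0.12 ± 0.14.

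The glutathione transferases were the widest group, with 27 usable probes of 20 genes and no call in either direction. Of these probes 15 were higher and 12 lower in PRA transgenics, with a median of 0.04 and a range from -0.51 to 0.26. By class, all 4 probes of the microsomal Mgst family were on the lower side (-0.42 to -0.02), though quantile normalization left 2 of them there and the gland channel alone 3. All 3 of the omega class were on the lower side (each -0.16), and were there under every scaling tried. Of 10 mu class probes 9 were on the higher side with a median of 0.18, and 9 or 10 under the other scalings and 8 with array weights.

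Mgst2, a membrane enzyme that can also make leukotriene C4, had the largest difference among the transferases by brightest probe. It was at -0.70, -0.52 and -0.70 in wild-type mice and -0.69, -1.07, -0.74 and -1.73 in PRA transgenics. The wild-type values lay close together, the first PRA animal fell within them and the fourth was far below. The difference was -0.42 ± 0.26, with a limma adjusted p of 0.687. Mgst1 differed by -0.02 ± 0.17 and Mgst3 by -0.24 ± 0.26.

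Gstt2, a theta class transferase, was measured by a pair of probes that both lay lower in PRA transgenics. Its brighter probe was at 2.07, 2.31 and 1.93 in wild-type mice and 1.72, 1.61, 1.46 and 2.12 in PRA transgenics. The other probe was at 2.18, 2.62 and 1.90 and at 1.53, 1.48, 1.59 and 2.28 in the same order. In both probes 3 PRA animals lay below every wild-type animal and the fourth among them. The differences were -0.38 ± 0.19 and -0.51 ± 0.26 (limma adjusted p of 0.607 and 0.611), and without the fourth PRA animal the second probe gave -0.70 and passed the threshold. Of the other theta members, Gstt1 had the largest rise of the class, 0.16 ± 0.35.

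Gstm5, a mu class transferase known from brain and testis, had in its second probe the narrowest spread of the transferases. That probe was at 0.63, 0.38 and 0.59 in wild-type mice and 0.79, 0.76, 0.82 and 0.77 in PRA transgenics, and the first at 0.52, 0.30 and 0.51 and at 0.73, 0.62, 0.71 and 0.60. Each PRA animal lay above each wild-type animal in both probes. The differences were small, 0.25 ± 0.11 and 0.22 ± 0.11, with limma adjusted p of 0.576 and 0.621. In all, 4 member probes had genotypes that did not overlap (5.8%, beside 9.95% of all probes): these, Gpx2 and 1 Prdx1 probe.

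Of the other mu class genes, all but Gstm7 shared the animal with their lowest value. In all 7 probes of Gstm1, Gstm2, Gstm3, Gstm4 and Gstm6 the third wild-type animal was the lowest of the 7, on average 0.59 below the mean of its probe, and the second wild-type animal lay 0.41 above it. Gstm1 by its brighter probe, for example, was at 0.92, 1.57 and 0.46 in wild-type mice and 1.13, 0.57, 0.72 and 1.22 in PRA transgenics. Gstm5 and Gstm7 did not follow this order, with their lowest values in the second wild-type animal and in the fourth PRA animal (1.27). The set of 7 was put together after the values were seen. The genes lie in a cluster on chromosome 3 of mm9, except that the files place the brighter Gstm1 probe on chromosome 5. No probe of another gene on the array matched a Gstm probe at 40 or more of 60 bases. Probes were compared only with probes and not with transcripts of the other mu class genes, so that signal shared among these genes was not tested. The highest of the class by difference was Gstm6 with 0.26 ± 0.20 and the lowest Gstm1 with -0.07 ± 0.29.

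**Figure D2:**
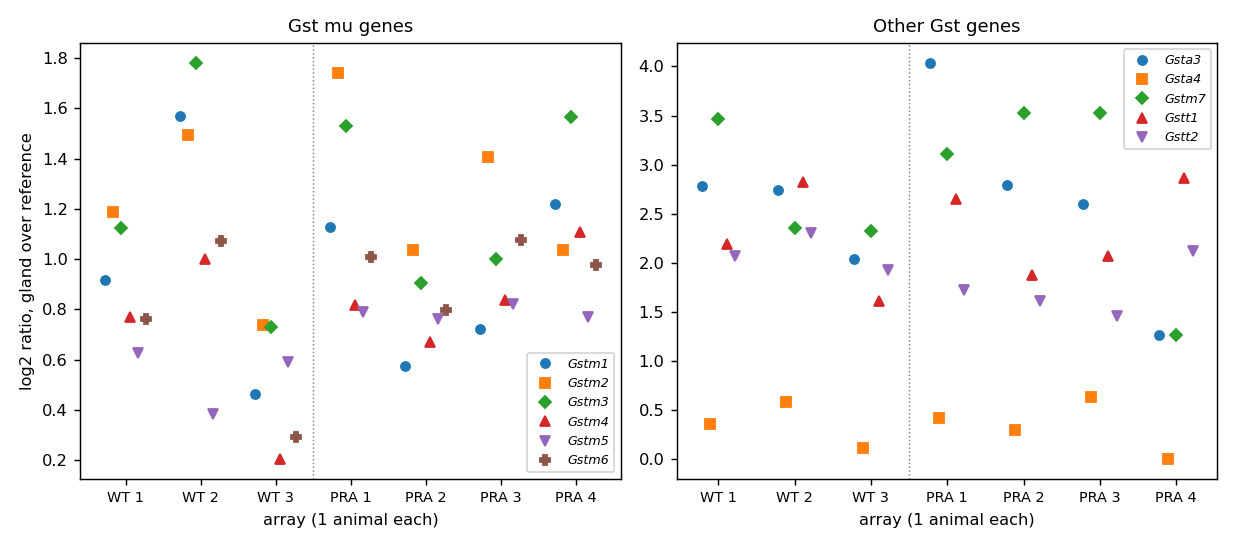
Log2 ratio of gland over reference in each animal for 6 mu class genes (left) and 5 other transferases (right), by brightest usable probe. Gstm7, on the right, is also of the mu class. The dotted line parts 3 wild-type from 4 PRA animals. On the left, Gstm1 to Gstm4 and Gstm6 share a low value in wild-type animal 3, and Gstm5 is higher in every PRA animal; on the right, Gsta3 and Gstm7 are lowest in PRA animal 4 (both at 1.27).

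Gsta3, an alpha class transferase known in mice for detoxifying the aflatoxin epoxide, varied most within the PRA group. It was at 2.79, 2.74 and 2.04 in wild-type mice and at 4.04, 2.79, 2.60 and 1.27 in PRA transgenics. The PRA animals thus held both the highest and the lowest value, and the second usable probe gave the same order of PRA animals (3.76, 2.52, 2.40 and 1.10). The difference was 0.15 ± 0.59. Gstm7 spread as widely, from 1.27 to 3.53, and its probe was not well above background in the reference on any array. On the gland channel alone Gstm7 differed by 0.52, with an unadjusted P under 0.01 in limma but under 1.5-fold, where the ratio gave 0.15 with an adjusted p of 0.971 in limma.

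Pi, kappa and omega transferases had small differences. Gstp1, the main pi class enzyme, differed by 0.24 ± 0.13 and Gstp2 by -0.03 ± 0.21. The mitochondrial and peroxisomal Gstk1 differed by 0.03 ± 0.14. Gsto1 and Gsto2, which reduce dehydroascorbate, each differed by -0.16, with standard errors of 0.15 and 0.18, and of the alpha class Gsta4, which takes 4-hydroxynonenal, by -0.02 ± 0.19.

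The glutathione peroxidases held 2 of the 3 calls, in opposite directions. Gpx2 is a selenoprotein known from epithelia of the gut. Its log2 ratios were 1.30, 0.63 and 1.49 in wild-type mice and -0.05, 0.25, -0.09 and 0.50 in PRA transgenics. Every PRA animal lay below every wild-type animal. The mean was 1.14 ± 0.45 (SD, n = 3) in wild-type mice and 0.15 ± 0.27 (SD, n = 4) in PRA transgenics, a difference of -0.99 ± 0.25 (SE), which is 1.98-fold lower in PRA transgenics. In limma P was 0.00482 and the adjusted p 0.393, and an exact permutation test of the 7 values, two-sided, gave P = 0.0571, the smallest that 3 against 4 animals allow. Genotypes that do not overlap fix that value, so that it adds no separate support. The gland channel alone gave -0.86 and the reference channel alone 0.14. The call held under all 17 alternatives tried, and leaving out any single array gave differences from -1.24 to -0.81. The smallest difference, -0.73, came under normexp background correction with loess. The probe was dim beside those of the other 2 calls, with a mean log2 gland signal of 6.59 where Gpx8 had 11.2 and Cat 12.1. Beside it, the mean log2 ratio of luminal epithelial markers was 3.73, 2.71 and 3.14 in wild-type mice and 3.53, 3.34, 3.00 and 2.70 in PRA transgenics. None of these 10 markers was called, and their part in the Gpx2 difference was not tested.

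Gpx8 is a peroxidase of the endoplasmic reticulum membrane that, unlike Gpx2, has no selenocysteine. It was at -0.45, -1.13 and -1.42 in wild-type mice and at -0.56, -0.08, 0.02 and -0.37 in PRA transgenics. The first wild-type animal lay among the PRA animals and the other two below them. The difference was 0.75 ± 0.26 (SE), or 1.68-fold higher in PRA transgenics, with an SD of 0.50 among wild-type mice and 0.27 among PRA transgenics. The adjusted p in limma was 0.465, and the exact permutation test gave P = 0.114. The gland channel alone gave 0.70 and the reference channel alone -0.04. The call was lost without wild-type animal 2 (0.69), wild-type animal 3 (0.54), PRA animal 2 (0.70) or PRA animal 3 (0.66). Fibroblast markers stood at 2.79, 2.66 and 2.27 in wild-type mice and 2.20, 2.27, 2.24 and 2.76 in PRA transgenics, and their part in the Gpx8 difference was not tested.

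The other peroxidases were not called. Gpx1, the abundant cytosolic enzyme, differed by -0.18 ± 0.30. Gpx3, the secreted form, differed by 0.22 ± 0.14 and Gpx4, which reduces phospholipid peroxides in membranes, by 0.15 ± 0.28. Gpx7, the closest relative of Gpx8 and likewise of the endoplasmic reticulum, differed by -0.02 ± 0.14.

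**Figure D3:**
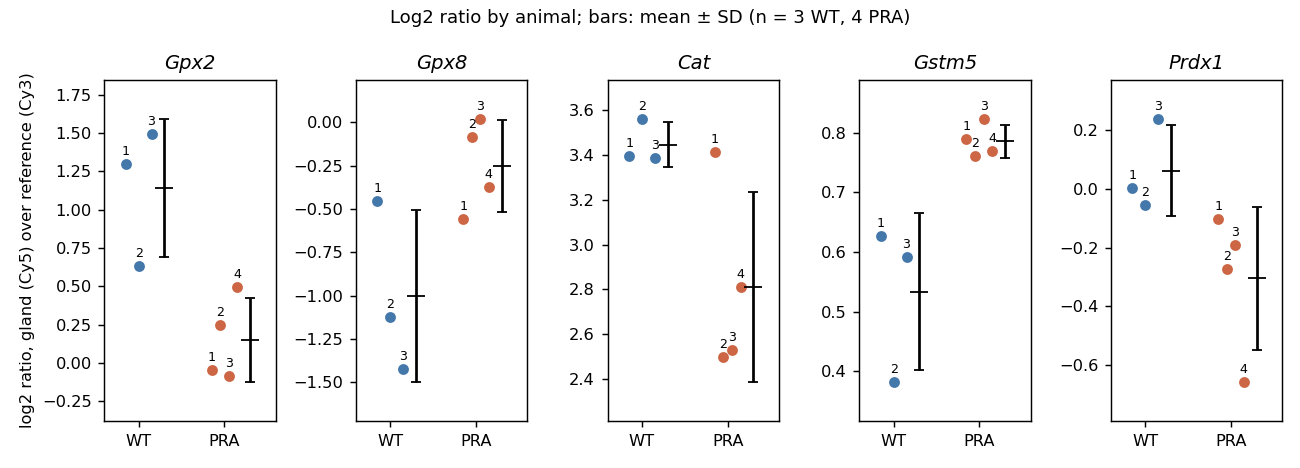
Log2 ratio of gland over reference in each animal, numbered within its genotype, with the mean and SD of the genotype (n = 3 wild-type, 4 PRA), for Gpx2, Gpx8, Cat, the second Gstm5 probe and the Prdx1 probe without overlap. Each panel has its own scale. Genotypes are apart in Gpx2, Gstm5 and Prdx1; in Gpx8 wild-type animal 1 (-0.45) and in Cat PRA animal 1 (3.41) lie among the other genotype.

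No peroxiredoxin probe (14 with sulfiredoxin, 7 genes) was called, and 6 were higher and 8 lower in PRA transgenics, a split that came to 7 and 7 on the gland channel alone, under quantile normalization and under normexp with loess, and to 9 and 5 with array weights. Prdx1, the main cytosolic peroxiredoxin, had the largest difference, and its 4 usable probes did not give 1 answer. The brightest probe was at 0.71, 0.80 and 0.89 in wild-type mice and at 0.86, 0.38, 0.55 and 0.15 in PRA transgenics, a difference of -0.31 ± 0.18. A second was at 0.00, -0.05 and 0.24 and at -0.10, -0.27, -0.19 and -0.66, with every PRA animal below every wild-type animal, and gave -0.37 ± 0.17 (adjusted p of 0.582 in limma). The remaining pair gave 0.19 ± 0.17 and -0.02 ± 0.22. By the files' mm9 positions on the plus strand of chromosome 4, these start at 116358214 (0.19) and 116358559 (-0.02). Both lie upstream of the pair that was lower, which starts at 116365578 and 116372029. The probe at -0.02 was dim, with a mean log2 gland signal of 4.50 and the reference well above background on 6 arrays. Another array probe with no gene symbol matched the brightest Prdx1 probe at 45 of 60 bases, so that its signal may be shared.

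Prdx2, abundant in red blood cells, differed by -0.02 ± 0.20, and its probes had opposite signs. Prdx3, the mitochondrial peroxiredoxin, differed by 0.11 ± 0.16. Prdx4, of the endoplasmic reticulum, differed by -0.10 ± 0.33, and Prdx5 by -0.13 ± 0.26. Prdx6, which takes glutathione as its reductant, differed by 0.03 ± 0.30, and its dimmer probe, matched by another array probe at 42 of 60 bases, by 0.18 ± 0.20. Srxn1, which repairs overoxidized peroxiredoxins, differed by 0.11 ± 0.17. Of all 17 members with more than 1 usable probe, the probes had the same sign in 14, and Gstm1, Prdx1 and Prdx2 were the exceptions.

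In the thioredoxin system 9 of 10 probes were on the higher side, with a median of 0.15, and none was called. The exception was Txn1, the cytosolic thioredoxin. It was at -0.42, -0.41 and -0.18 in wild-type mice and at -0.33, -0.55, -0.58 and -0.75 in PRA transgenics. The first PRA animal lay among the wild-type animals, and the difference was -0.21 ± 0.14 with a limma adjusted p of 0.711. Txn2, the mitochondrial form, gave 0.20 ± 0.18, and its wild-type animals were almost equal (0.14, 0.16 and 0.15) while the PRA animals were at 0.62, 0.18, 0.61 and 0.01. All 6 probes of the reductases were on the higher side, from 0.00 to 0.28. Under quantile normalization 4 of the reductase probes and 7 of the 10 probes of the system were, and the brightest Txnrd1 probe ran from -0.05 to 0.10 with single arrays left out. By brightest probe Txnrd1, the cytosolic reductase, differed by 0.00 ± 0.15, the mitochondrial Txnrd2 by 0.15 ± 0.23 and Txnrd3, known from testis, by 0.09 ± 0.13.

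Cat, the peroxisomal catalase, was the third call. It was at 3.39, 3.56 and 3.38 in wild-type mice and at 3.41, 2.50, 2.53 and 2.81 in PRA transgenics. The first PRA animal was level with the wild-type animals and the other 3 were below all of them. The means were 3.45 ± 0.10 (SD, n = 3) and 2.81 ± 0.42 (SD, n = 4), a difference of -0.63 ± 0.23, or 1.55-fold lower in PRA transgenics. The adjusted p in limma was 0.497, and the exact permutation test gave P = 0.171. The gland channel alone gave -0.54, under 1.5-fold. Without PRA animal 1 the difference was -0.83 and remained called. Leaving out any of the other 6 arrays gave differences from -0.66 to -0.53, and the call was lost each time. White adipocyte markers stood at 5.74, 5.94 and 5.58 in wild-type mice and at 6.32, 5.63, 5.89 and 5.87 in PRA transgenics, highest in the PRA animal in which Cat was high, and their part was not tested. That was not particular to them. Luminal epithelial, brown adipocyte and endothelial markers were also highest in that animal among PRA transgenics.

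The superoxide dismutases were not called. Sod1, the cytosolic enzyme, differed by 0.15 ± 0.28, by a probe that another probe without a gene symbol matched at 49 of 60 bases. Sod2, the mitochondrial enzyme, had the highest difference among the members not called, 0.36 ± 0.27, with 0.85, 0.51 and 0.96 in wild-type mice and 1.28, 1.03, 1.69 and 0.54 in PRA transgenics. In it 3 PRA animals were above all wild-type animals and the fourth was among them. Sod3, the extracellular enzyme, differed by -0.06 ± 0.40 and spread widely, from 2.73 to 4.28.

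Nqo1 and Hmox1, commonly used as readouts of Nrf2 activity, were not called either. Nqo1 was at -1.58, -0.85 and -2.03 in wild-type mice and at -1.71, -2.67, -1.98 and -0.86 in PRA transgenics, and Hmox1 at -0.82, -0.96 and -0.74 and at -0.84, -1.55, -1.21 and -0.02. Both were lowest in the second PRA animal. Hmox1 was highest in the fourth PRA animal, and Nqo1 was as high there as in the second wild-type animal. The differences were -0.32 ± 0.45 and -0.07 ± 0.34.

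**Figure D4:**
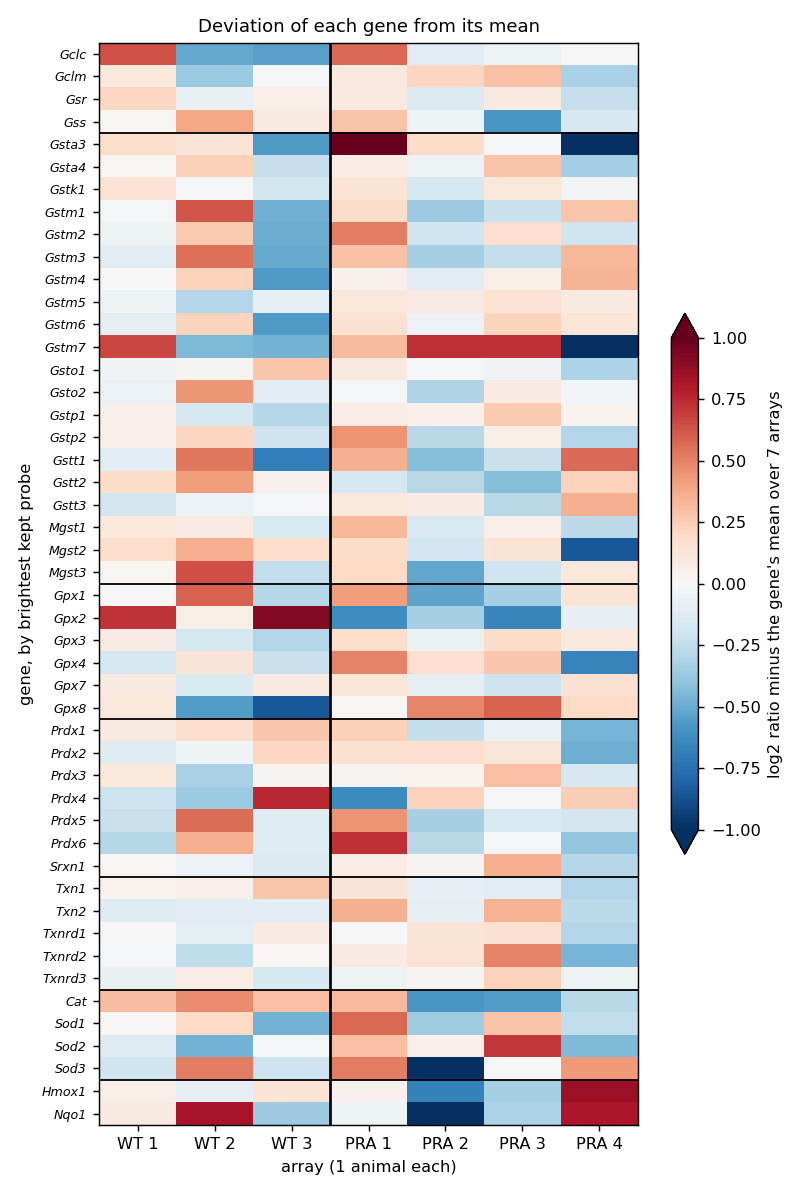
Deviation of the log2 ratio of each of 48 genes (brightest usable probe) from the mean of that gene over the 7 arrays, with genes in order of role and animals in columns; colours stop at 1 in both directions. The columns differ within each genotype: PRA animal 4 is low for many genes but high for Hmox1 and Nqo1.

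The highest and lowest values were spread unevenly over the animals. PRA animal 4 had the lowest value of the 7 arrays in 25 of the 69 member probes (36.2%, beside 15.9% of all probes), and the median log2 ratio over the 69 probes was 0.06 in it, against 0.62, 0.32 and 0.55 in the other PRA animals and 0.43, 0.51 and 0.24 in wild-type mice. PRA animal 3 was highest in 17 probes (24.6%, beside 14.0%) and wild-type animal 2 in 15 (21.7%, beside 16.8%). PRA animal 1 was highest in 14 (20.3%, beside 19.5%), near the share of all probes. Among 8 probes of the mitochondrial Prdx3, Txn2, Txnrd2 and Sod2, a set put together after the values were seen, PRA animal 3 was highest in 5 and PRA animal 4 lowest in 4. PRA animal 4 also had a macrophage marker mean of 3.54, where the other 6 arrays lay between 2.65 and 3.04, and the high muscle marker mean given above. What these lists have to do with the members was not tested. Without PRA animal 4, members called were Gpx2, Gpx8 and Gstt2 (4.35% of members, beside 6.81% of all probes).

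Some members differed far more between gland and reference than between the genotypes. Ratios compare 1 gland with cultured cell lines and are open to dye bias, since no dye was swapped, and levels of different probes cannot be set against each other. The gland signal exceeded that of the reference 26.0-fold for Mgst1 by its brightest probe (a mean log2 ratio of 4.70, and 3.91 by its other probe), 13.7-fold for Gpx3, 13.6-fold for Sod3, 11.3-fold for Gpx7, 9.84-fold for Gstk1 and 8.48-fold for Cat. It was lower than the reference at a ratio of 0.273 for Gsto1, 0.314 for Nqo1, 0.400 for Gstp1 and 0.440 for Txnrd1.

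Other genes of the pathway were taken from fixed lists of 75 genes, of which 73 had a usable probe and Slc7a11 and Duox2 had none. By brightest probe, 1 of 73 was called and lower, none was called and higher, and 5 had an unadjusted P under 0.05, beside 4.06% and 7.95% of all genes. None of 8 regulators was called: Nfe2l2 itself differed by -0.03 ± 0.12 and Keap1, which holds Nrf2 back, by 0.11 ± 0.13. Of 15 genes of glutathione turnover and 12 of heme, iron and quinone metabolism none was called either.

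The called gene was Cybb, the membrane subunit of the phagocyte NADPH oxidase. It was at 2.17, 2.23 and 1.78 in wild-type mice and at 1.47, 1.28, 0.42 and 1.84 in PRA transgenics. The fourth PRA animal lay among the wild-type animals. The difference was -0.81 ± 0.33 with an adjusted p of 0.535 in limma, the exact permutation test gave P = 0.114, and a second Cybb probe gave -0.46 ± 0.32. The call was lost without wild-type animal 1 (-0.76), wild-type animal 2 (-0.72) and PRA animals 1 (-0.88), 2 (-0.82) or 3 (-0.53). Macrophage markers were at 3.04, 3.03 and 2.73 in wild-type mice and at 2.65, 2.97, 2.73 and 3.54 in PRA transgenics, none of 6 was called, and their part in the Cybb difference was not tested.

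Among 19 glutaredoxin and thioredoxin partners, 4 had an unadjusted P under 0.05 in limma but less than 1.5-fold. Over all genes by brightest probe, 7.95% had such a P at any fold change. The genotypes did not overlap in these 4, beside 9.95% of all probes. They were picked by their P, so that the lack of overlap adds no separate support. Sesn2, a stress-induced sestrin, differed by -0.48 ± 0.16 and Txndc5, a disulfide isomerase of the endoplasmic reticulum, by -0.37 ± 0.13. Glrx, the cytosolic glutaredoxin, differed by 0.34 ± 0.14 and Txndc12, of the endoplasmic reticulum, by 0.31 ± 0.12. Their adjusted p in limma ran from 0.462 to 0.539.

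Of 8 genes listed under NADPH supply none was called by its brightest probe, and their median difference was 0.17. The list includes Tkt and Taldo1, enzymes of the pentose phosphate pathway that make no NADPH themselves. Tkt and Me1 had the largest differences of all partners. Tkt, transketolase of the pentose phosphate pathway, was at 2.43, 1.03 and 2.41 in wild-type mice and at 3.79, 3.67, 4.72 and 0.52 in PRA transgenics. Me1, malic enzyme, was at 3.65, 2.23 and 3.56 and at 4.48, 4.68, 5.47 and 1.53, and Pgd, 6-phosphogluconate dehydrogenase, at 1.60, 1.03 and 1.39 and at 2.20, 2.20, 2.73 and 0.76. In each of them 3 PRA animals lay above every wild-type animal and the fourth below all. The differences were 1.22 ± 0.96, 0.89 ± 0.92 and 0.63 ± 0.44, with adjusted p from 0.727 to 0.822 in limma. Without PRA animal 4 they were 2.10, 1.73 and 1.03, and all of them passed the threshold. Brown adipocyte markers had mean log2 ratios of 4.86, 4.45 and 4.77 in wild-type mice and 5.28, 4.93, 5.19 and 4.52 in PRA transgenics. They too were lowest in wild-type animal 2 and PRA animal 4, none of 5 was called, and their part in these differences was not tested. This order was not particular to them. Luminal epithelial, basal and red blood cell markers were also lowest in wild-type animal 2 among wild-type mice and in animal 4 among PRA transgenics. A dimmer Tkt probe went the opposite way and passed the threshold, with -0.60 ± 0.20 (adjusted p of 0.463 in limma). G6pdx, which opens the pentose phosphate pathway, differed by 0.16 ± 0.29.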

How the data were processed

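RNA from glands of 7 animals (3 wild-type, 4 PRA transgenic) was hybridised with reference RNA, 1 animal to an Agilent array. The deposited scanner files hold intensity values per spot from Agilent Feature Extraction 12.0, which per the file headers are background-subtracted and dye-normalized. The authors also deposited a table of log2 ratios, centred per probe, used as an alternative. The number of arrays limits the precision.

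The log2 ratio of processed Cy5 to Cy3 was taken, control and outlier spots were dropped and spots of a probe were averaged. A probe was usable where Cy5 was well above background in each array of a genotype (34288 of 56605). limma 3.58.1 in R 4.3.3 was fitted to all usable probes of the 7 arrays without covariates, with Benjamini-Hochberg adjustment, and tested on simulated data. P under 0.05 with 1.5-fold is the wider rule of the study, whose methods use an unpaired test by gene. The P values cover the spread between animals on 1 slide. The brightest usable probe stands for a gene. Symbols of all 52 genes matched RefSeq names. Positions are the files' (mm9); promoters are RefSeq's (GRCm38.p6).

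The members, pathway lists, marker lists and alternatives were chosen with earlier results of these data known. Named with values were the single-symbol genes, every Prdx, Txn, Txnrd and Mgst gene, Gpx1, Gpx3, Gpx4, the largest rise and fall of each other family, and genes past the threshold; values by animal were given for the latter and for the largest difference of each role. Genes named beyond this rule, such as Gstm7, Gsta3, Hmox1, Tkt, Me1, Pgd and the partners at P under 0.05, were chosen after their values were seen. Alternatives changed the background and dye correction (normexp, offset 50, with loess), the source (the deposited table), the filter (none, or both channels), the channel (Cy5 alone), the scaling (quantile), the test (the t-test of the methods, a trend by intensity, weights by array, a replicate block), the probe that stood for a gene, and the arrays (each left out in turn).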

Additional observations from a re-analysis of the deposited data

Results flagged for a closer look

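In groups of 4 PRA transgenics, 1 animal stood apart from the other 3 beyond the 95% critical value of Dixon's test in 7 of 80 groups examined, where chance alone gives about 4. The gap to the nearest animal, as a share of the range, was 0.838 for Gclc in animal 1 (high) and 0.832 for Gstp1 in animal 3 (high). In animal 4 it was 0.862 for the second Gstt2 probe (high), 0.934 for the brighter Prdx2 probe (low) and 0.926 for the dimmer Txnrd1 probe (low). The same animal stood apart in the mean of the skeletal muscle markers (0.960, high) and of the fibroblast markers (0.870, high). Wild-type mice, in a group of 3, were not examined in this way.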

How the results depend on the processing

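No member reached an adjusted p under 0.05 in limma or in the methods' t-test under any alternative, and members with an unadjusted P under 0.05 numbered from 1 to 7. Under the reported settings 3 had such a P in limma (4.35%, beside 9.02% of all probes). The median log2 fold change of the members stayed between -0.05 and 0.15, less than its spread between animals (0.215) from the reported 0.04, and was highest under quantile normalization. Without the filter 5 member probes were called (6.17% of 81, beside 5.95% of all probes). The additions were dim Gsta3 (-0.82) and Txn2 (1.12) probes. Leaving out single arrays gave from 1 to 3 called members (1.45% to 4.35%, beside 4.03% to 6.81% of all probes). Gpx2 alone was left without wild-type animal 2 or 3 or PRA animal 2 or 3. At P under 0.01 and 2-fold the count was 1 with array weights and from 0 to 1 with single arrays left out. The count of pathway partners was 0 with both channels above background, with quantile normalization and with the methods' t-test, and 7 with the replicate block. With single arrays left out it ran from 0 to 6: 3 without wild-type animal 3, 6 without PRA animal 4, and 0 without PRA animal 2 or 3. Over all probes, 7.13% were called with the replicate block, 6.81% without PRA animal 4 and 4.84% without wild-type animal 3. The replicate numbers did not pair the animals (correlations of same-numbered deviations 0.10, -0.30 and 0.04). With them as a block, which drops PRA animal 4 from the estimate, 2 members were called (2.90%, beside 7.13% of all probes). These were Gpx2 (-1.10) and a Gstt2 probe (-0.70), and Gpx8 (0.79) and Cat (-0.63) were not called. Cat was also not called on Cy5 alone (-0.54), under quantile normalization (-0.44), with an intensity trend or with the methods' t-test. On Cy5 alone a Gstt2 probe was called (-0.75). For that probe the reference channel alone also differed, by -0.23 with an unadjusted P of 0.00775 in limma. Of 832 values of single genes under alternatives, 741 kept direction and side of the threshold, 16 lost a call (Gpx8 and Cat), 1 gained it (Gclc) and 74, of 25 genes, changed sign without a call on either side, at sizes up to 0.304. Over all probes called, 42.8% were higher in PRA transgenics, and 56.2% under quantile normalization and 33.8% under normexp with loess, where 0.957% of probes were called. A block for slide row could not be fitted because each row held 1 genotype.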
